A study of Mus musculus with 6 samples.

Results

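Differentiating mouse iPS cells (induced pluripotent stem cells, made by reprogramming and able to form most cell types) that had received DMSO, with or without neuregulin 1 (NRG-1), were compared with cells that had received NRG-1 alone. The comparison used 3 of the 6 arrays in the set: the arrays titled for DMSO and for DMSO together with NRG-1 on one side, and the NRG-1 array on the other. All 3 cultures came from DBA/2J cells labelled female, had spent 5 days as floating embryoid bodies, were then attached to gelatin, and were collected at day 7. DMSO was given at 1%, NRG-1 at 100 ng/ml, and the combined culture got both. Each treatment had 1 array, made from 300 ng of total RNA, so the DMSO arrays are different treatments and not replicates, no difference has a replicate check, and no test was run. The combined culture differed from the NRG-1 culture by DMSO only, while the DMSO culture differed from it in both agents, and a differentiated culture with neither agent was not analysed here. Both differences are taken against the same NRG-1 array, so whatever is particular to that array enters both of them.

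DMSO is a polar solvent that has long been added to embryoid bodies to push pluripotent cells towards mesoderm and heart muscle. NRG-1 is an EGF-like growth factor whose receptors are ERBB3 and ERBB4, which signal mostly as pairs with ERBB2 and act on the ERK and AKT pathways. In the embryonic heart the inner lining secretes it, and heart muscle needs it to form its inner ridges.

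Values are log2 expression, so a difference of 1 is 2-fold, and each gene's difference is the mean of the arrays with DMSO minus the NRG-1 array. Of 22180 genes, 13510 reached the median of the whole table (5.20) on at least 1 of the 3 arrays and were counted, and 8670 did not. Both arrays with DMSO lay above the NRG-1 array for 5989 genes (44.3% of those counted) and below it for 4832 (35.8%). The mean difference was at least 2-fold upward for 169 genes (1.25%) and at least 2-fold downward for 34 (0.252%), and at 4-fold the counts were 8 (0.0592%) and 0 (0%). In all of these genes the mean difference was larger than the gap between the arrays with DMSO. The choice of genes favours this, as those arrays were close to each other. The SD of the differences over the counted genes was 0.375 for the DMSO array and 0.343 for the combined array, against 0.211 between those arrays. For 480 genes with a pair of probe sets, the disagreement of the pair gave an SD of 0.284 for the mean difference. Both probe sets read the same RNA on the same arrays, so error shared by a whole array is not in this SD.

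The balance of higher and lower genes depends on how the arrays are scaled. The 10 measured housekeeping genes had medians of 10.23 with DMSO, 10.19 with both agents and 10.0045 with NRG-1. When each array was shifted to an equal housekeeping median, the median difference of all counted genes went from 0.03 to -0.19. The shift lowers every gene's difference by the same amount. The filter was applied again after it and 13918 genes passed, so list medians under it also reflect which members were counted. The counts at 2-fold then became 96 higher and 107 lower, so that 47.3% of the called genes were higher, against 83.3% as deposited. List medians below are as deposited and should be read against 0.03 for all counted genes. Counts printed without a share should be read against all counted genes. Those were 44.3% above NRG-1 on both arrays, 35.8% below, and 1.25% and 0.252% past 2-fold upward and downward. Just inside the upper threshold lay Nrp1 (1.001) and Slc17a5 (1.006), and just outside it Aar2 and Mecom (both 0.999). On the lower side Gng3 and Spink1 (both -1.03) were inside, and Rbp4 (-0.996) and Tcl1b2 (-0.99) outside. At the filter on low values, Dlx4 and Nox4 were the last genes kept, with a highest value of 5.20, and Tmem44 and Fa2h the first left out, also at 5.20 after rounding.

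**Figure D1:**
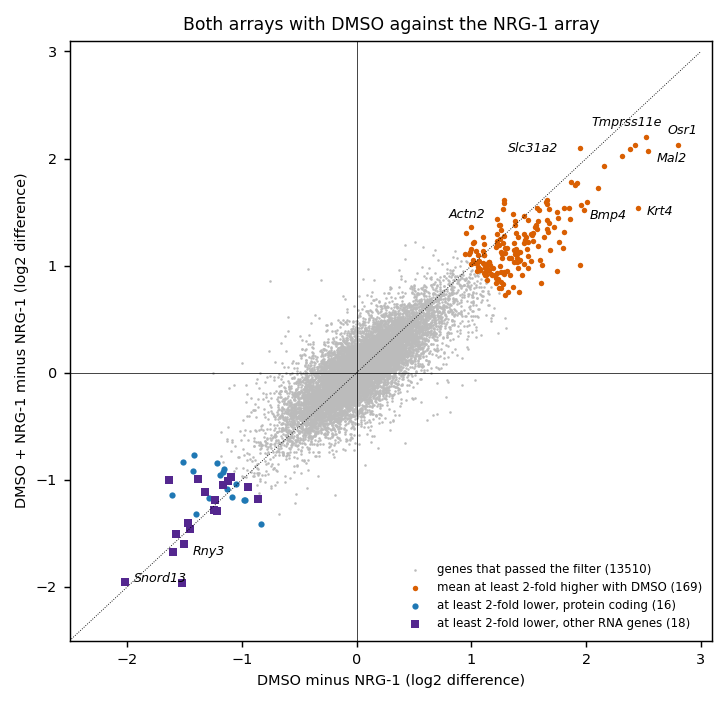
Each point is 1 of 13510 counted genes, with the log2 difference of the DMSO array from the NRG-1 array on the horizontal axis and that of the combined array on the vertical axis; coloured points are the 169 genes at least 2-fold higher with DMSO and the 34 at least 2-fold lower, split into 16 protein-coding and 18 other RNA genes. Both axes subtract the same NRG-1 array, so the slope of the cloud is no measure of likeness; most orange points lie below the dotted line of equal differences, as the DMSO array exceeded the combined array for 139 of the 169 genes.

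The labels call these cultures cardiomyocytes derived from iPS cells, and their markers were mixed. Cardiac troponin T (Tnnt2), a defining protein of heart muscle, was 9.32 with DMSO, 9.32 with both agents and 8.50 with NRG-1, above the iPS array at 6.35. Nkx2-5, the early heart transcription factor, was 6.71, 6.85 and 6.82, within 0.16 of the iPS array at 6.69. The pluripotency factor Nanog was between 4.29 and 4.55 in the cultures, against 11.86 in iPS cells. The yolk sac protein Afp stood between 10.72 and 11.48 and keratin 18 (Krt18) between 11.73 and 11.95, so endoderm and epithelial RNA was strong in all 3 cultures. The arrays labelled neonatal and adult cardiomyocytes serve here as reference points only. They are labelled female too, yet the Y-linked gene Kdm5d read 6.17 and 7.02 there, against at most 3.38 in the cultures and the iPS array. Xist, the RNA of the inactive X chromosome, was 8.78 in the neonatal array, 3.39 in the adult array and between 6.49 and 6.91 in the cultures. In RNA from a whole culture, fewer cells of a type and less RNA per cell cannot be told apart.

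The most different genes on the higher side included several of covering epithelia and of mesothelium, the flat cell layer over the heart and other organs, and others with no such tie. Osr1, a transcription factor of early intermediate and lateral mesoderm, had the largest difference of all counted genes, at 10.43 with DMSO, 9.76 with both agents and 7.63 with NRG-1 (mean difference 2.46). The iPS array read 6.17 and the neonatal and adult arrays 9.58 and 9.62. The NRG-1 culture was therefore the lowest of the differentiated cultures by a wide margin, and the DMSO culture was above both heart-derived arrays.

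Some of the next genes encode proteins of the epithelial cell surface. Tmprss11e, a membrane-bound serine protease of squamous epithelium, was 8.77, 8.45 and 6.25 in the same order (2.36). The apical sorting protein gene Mal2 was 10.06, 9.60 and 7.52 (2.31), and the epithelial protease gene Prss22 was 10.02, 9.73 and 7.71 (2.17). All 3 genes were below 7 in the iPS, neonatal and adult arrays, as was Tmprss11e in the NRG-1 culture. For each gene all 3 cultures were above those arrays, and the NRG-1 culture was the lowest of the cultures. Krt4, a keratin of stratified mucosa, was 8.11, 7.19 and 5.65 (2.00), with 3.89 in iPS cells. Its DMSO and combined values were further apart than those of the other genes just named. Upk1b, a membrane plaque protein of bladder lining that is also made by mesothelium, was 10.12, 9.75 and 8.02 (1.92). Msln, which encodes mesothelin, the surface protein that names the mesothelium, was 10.35, 9.93 and 8.34 (1.80). Both were above the neonatal array, which read 7.60 for Upk1b and 7.36 for Msln, in every culture. Slc6a14, an amino acid importer of epithelia, was 7.58, 7.13 and 5.601 (1.75), against 4.25 in iPS cells.

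Among the 19 counted genes of stomach, bladder and surface epithelium, 4 passed 2-fold upward and 0 downward, beside 1.25% and 0.252% of all counted genes. Both arrays with DMSO were above the NRG-1 array for 12 and below it for 7, beside 44.3% and 35.8%. The median of 0.33 became -0.08 under the housekeeping shift, still above the -0.19 of all genes. Part of that move came from a changed set of counted members. After Upk1b came the membrane mucin Muc4, at 8.96, 8.54 and 7.11 (1.65), and the raft protein gene Mal, at 11.65, 11.35 and 10.22 (1.28). Cathepsin E (Ctse), a protease of gastric surface cells, was 5.80, 5.79 and 4.77 (1.03), low on all arrays. The list did not move as one. Gkn1, which encodes a peptide of the stomach surface, was 9.72 with DMSO, 10.04 with both agents and 10.67 with NRG-1 (-0.79), and the trefoil peptide gene Tff1 was 6.38, 6.31 and 7.10 (-0.76). For these gastric genes the NRG-1 culture was the highest.

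The stratified epithelium list holds keratins and cornified envelope proteins that toughen skin and mucosa. Of 23 counted genes, 1 was at least 2-fold higher (1.25% of all genes). Both arrays with DMSO lay above the NRG-1 array for 15 and below it for 4 (44.3% and 35.8% of all genes). The median was 0.27 (0.08 under the housekeeping shift). Beside Krt4, the envelope precursor gene Scel was 9.38, 9.01 and 8.21 (0.98), the plakin gene Ppl 7.63, 7.51 and 6.82 (0.75), and the basal keratin gene Krt14 5.82, 5.91 and 5.14 (0.72). The envelope protein genes Sprr1a and Ivl were among the brightest in all cultures and differed less, by 0.42 and 0.34. Trp63, the master regulator of stratified epithelium, did not pass the filter, at 4.39, 4.57 and 4.30.

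In simple epithelium and its junctions, 0 of 23 genes were 2-fold higher or lower, with 13 above, 8 below and a median of 0.23 (0.02 under the housekeeping shift, and -0.03 with the filter at the 75th percentile). Regulators of epithelial identity were among the most different. The grainyhead factors Grhl1 and Grhl2 read 6.01, 5.73 and 4.93 (0.94) and 6.51, 6.42 and 5.73 (0.73), and the ETS factor gene Elf3 read 8.51, 8.33 and 7.70 (0.72). The adhesion molecule gene Epcam was lower with DMSO, at 9.37, 9.26 and 9.81 (-0.49), and E-cadherin (Cdh1) was 9.94, 9.73 and 9.95. The tight junction genes Cldn3 and Cldn4 differed by 0.65 and 0.43, so members of this list differed in both directions.

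For the mesothelial and epicardial list, only 5 of 12 measured genes passed the filter. Msln and Upk1b were 2-fold higher, Upk3b, another uroplakin of mesothelium, was 7.40, 7.02 and 6.30 (0.91), and Krt19 was 11.48, 11.23 and 11.01 (0.34). Those 4 were above the NRG-1 array on both arrays, and the median was 0.91 (0.41 under the housekeeping shift), or 0.20 over all 12 measured genes, and Upk1b, Upk3b and Krt19 also stand on epithelial lists. The epicardial regulators were not higher with them. Wt1 was 7.08, 6.94 and 7.02 (-0.01), and Tbx18 and Tcf21 did not pass the filter, with highest culture values of 5.04 and 5.15 against over 8 in the neonatal and adult arrays.

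Other epithelial and signalling genes at least 2-fold higher, named after their values were seen, included the integrin genes Itgb6 (1.38) and Itga2 (1.34), the Rab GTPase gene Rab25 (1.56), the epidermal ceramide synthase gene Cers3 (1.33), the calcium-binding gene S100a14 (1.28) and the differentiation factor gene Zfp750 (1.23). Prostaglandin synthase 2 (Ptgs2), the inducible enzyme of prostaglandin synthesis, was 11.38, 11.10 and 9.70 (1.54). The eighth gene past 4-fold, beside Osr1, Tmprss11e, Mal2, Prss22, Uprt, Trp53i11 and Slc31a2, was 2610528A11Rik, at 9.32, 9.02 and 6.89 (2.27).

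**Figure D2:**
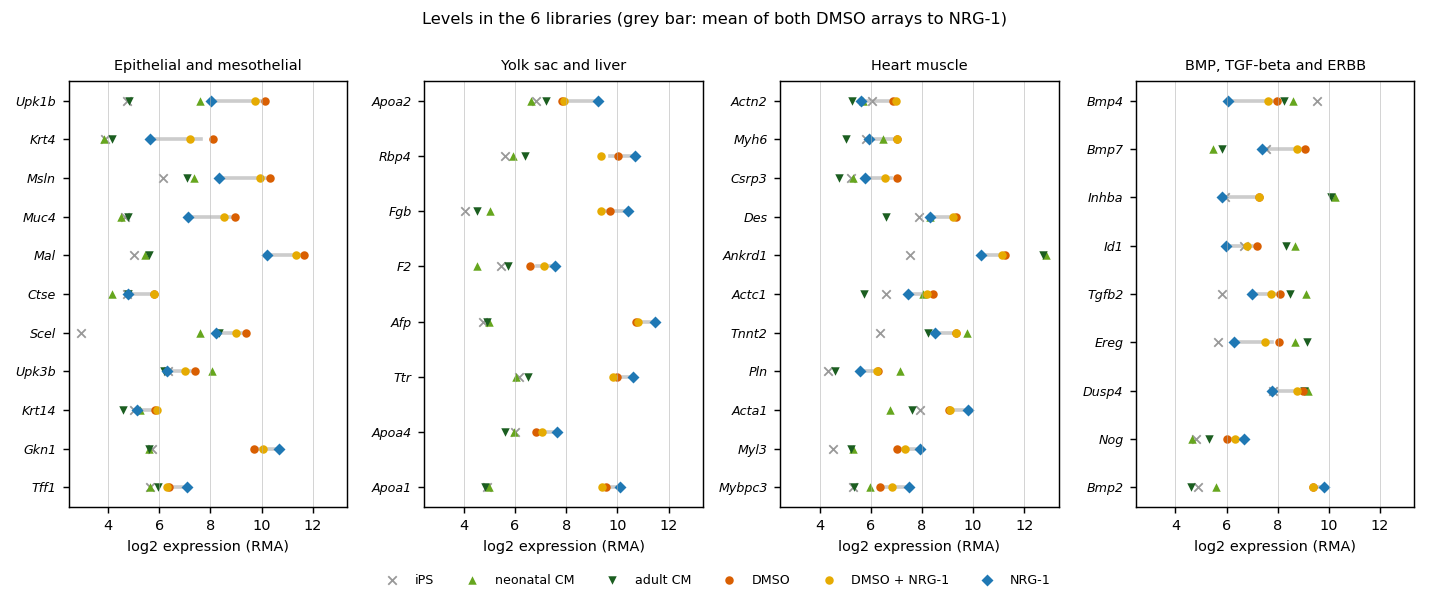
Log2 expression of named genes on all 6 arrays, by gene group; the grey bar runs from the NRG-1 array to the mean of both arrays with DMSO. In the epithelial and mesothelial panel the NRG-1 diamond lies left of both DMSO circles for every gene but Gkn1 and Tff1, in the yolk sac and liver panel it lies right of them for all 8, and the heart muscle and signalling panels hold genes of both kinds.

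Proteins secreted by yolk sac and fetal liver lay mostly on the other side. Of 22 counted genes, 17 were below the NRG-1 array on both arrays with DMSO and 1 above, beside 35.8% and 44.3% of all genes. The median was -0.45 (-0.65 under the housekeeping shift), and 1 gene passed 2-fold, beside 0.252% of all genes. The mean level of these 22 genes was 7.40 with DMSO, 7.41 with both agents and 7.86 with NRG-1, against 5.69 in iPS cells.

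Apoa2, an apolipoprotein of high-density lipoprotein, was 7.84 with DMSO, 7.92 with both agents and 9.24 with NRG-1 (-1.36). The iPS, neonatal and adult arrays lay between 6.63 and 7.20, so the NRG-1 culture stood above all other arrays. Rbp4, the carrier of retinol in blood, was 10.01, 9.38 and 10.69 (-0.996). The NRG-1 culture was again the highest, and the combined culture the lowest. The fibrinogen chain gene Fgb was 9.70, 9.37 and 10.41 (-0.88), prothrombin (F2) 6.58, 7.12 and 7.56 (-0.71), and the fetal albumin relative Afp 10.72, 10.81 and 11.48 (-0.71). The thyroid hormone carrier gene Ttr differed by -0.70, and the apolipoprotein genes Apoa4 and Apoa1 differed by -0.68 and -0.60. Alb, the albumin of later liver, was below the filter, at 3.95, 3.92 and 3.75. Other secreted or gut genes on the lower side were the trypsin inhibitor gene Spink1, at 7.09, 7.46 and 8.31 (-1.03), the liver-secreted gene Spp2, at 7.29, 7.53 and 8.46 (-1.05), and the galectin gene Lgals2, at 5.15, 5.80 and 6.57 (-1.10).

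Endoderm transcription factors had 12 of 17 genes below the NRG-1 array on both arrays and 2 above (35.8% and 44.3% of all genes). With 0 past 2-fold, their median was -0.20 (-0.41 under the housekeeping shift). Foxa2, which opens endoderm genes, was 9.12, 9.35 and 9.58 (-0.35), the visceral endoderm factor gene Sox7 was 7.23, 7.43 and 7.78 (-0.45), and Prox1 was 5.34, 5.76 and 6.15 (-0.60). The factors above were Sox9, at 8.19, 8.29 and 7.29 (0.95), and Foxa1, at 8.94, 8.50 and 7.92 (0.80). Hnf4a, the hepatocyte factor, lay on either side of the NRG-1 array, at 6.39, 6.79 and 6.69.

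Heart muscle genes did not differ as one programme. In the thick filament list, of the myosin motor and its partners, 1 of 10 counted genes was 2-fold higher and 0 lower, beside 1.25% and 0.252% of all genes. Myh6, the fast myosin heavy chain of mouse heart, was 7.04 with DMSO, 7.03 with both agents and 5.93 with NRG-1 (1.10). The NRG-1 culture was close to the iPS array at 5.82, and both cultures with DMSO were above the neonatal array at 6.47. The adult array read 5.05. Over the counted thick filament genes the neonatal and adult arrays averaged 5.56 and 5.10, near the iPS array at 5.08. Those heart-derived arrays are thus a low bar for this list. The slow chain gene Myh7 split the arrays with DMSO, at 6.36, 7.02 and 6.81. Mybpc3, which ties myosin to actin, went the other way, at 6.35, 6.84 and 7.48 (-0.88), as did the light chain gene Myl3, at 7.04, 7.33 and 7.93 (-0.75). Titin (Ttn), the spring of the sarcomere, was 5.69, 5.75 and 5.10 (0.62), and the ventricular light chain gene Myl2 was 5.70, 5.46 and 5.41 (0.17). The list median of 0.06 turned to -0.15 under the housekeeping shift.

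Thin filament genes gave 0 of 11 past 2-fold, 6 above and 4 below, and a median of 0.13 that turned to -0.08 under the housekeeping shift. Cardiac actin (Actc1) was 8.44, 8.20 and 7.46 (0.86) and Tnnt2 differed by 0.82. Skeletal actin (Acta1), which fetal heart also makes, was 9.07, 9.11 and 9.81 (-0.72). Troponin C (Tnnc1) was 7.49, 7.63 and 7.89 (-0.34), and tropomyosin 1 (Tpm1) was 10.56, 10.51 and 10.49.

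Of 12 Z-disc and intermediate filament genes, which anchor the sarcomere, 2 passed 2-fold upward and 0 downward (1.25% and 0.252% of all genes), with a median of 0.25 (0.04 under the housekeeping shift). The cross-linker of actin at the Z-disc, Actn2, was 6.87, 7.00 and 5.63 (1.31), and the NRG-1 culture was the lowest of the cultures and below the iPS array at 6.04. The muscle LIM protein gene Csrp3 was 7.01, 6.56 and 5.77 (1.02). Desmin (Des) was 9.31, 9.19 and 8.31 (0.94), and Ankrd1, a stretch-responsive cofactor, was 11.26, 11.14 and 10.30 (0.90). Outside the lists, and named after their values were seen, the heart membrane protein gene Popdc2, at 7.50, 7.63 and 6.25 (1.31), and the Z-disc gene Pdlim3, at 9.19, 8.79 and 7.70 (1.29), were also past 2-fold.

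Cardiac transcription factors held 18 counted genes with 0 past 2-fold, 10 above and 3 below, and a median of 0.08 that turned to -0.13 under the housekeeping shift. Hand1, a factor of the first heart field and of extraembryonic mesoderm, was 7.82, 7.42 and 6.97 (0.65), and Tbx5 was 5.52, 5.42 and 5.01 (0.46). Gata4, which works in heart and in endoderm, was 8.82, 9.16 and 9.35 (-0.36). Among cardiac peptides and calcium handling genes, 11 of 18 measured genes were counted, 7 lay above and 0 below, and the median of 0.15 turned to -0.06 under that shift. The sodium-calcium exchanger gene Slc8a1 was 5.21, 5.55 and 4.50 (0.88) and phospholamban (Pln), the brake of the calcium pump, was 6.29, 6.26 and 5.58 (0.69). The natriuretic peptide genes Nppa and Nppb differed by 0.42 and 0.13, and the calcium release channel gene Ryr2 was 7.17, 7.53 and 7.43. The mean level over the counted members was lowest with NRG-1 for the Z-disc list (7.33, 7.33 and 6.95) and the peptide list (7.28, 7.29 and 6.997), but lowest with DMSO for the thick filament list (6.20, 6.52 and 6.32).

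Connective tissue genes lay mostly on the higher side. Among 20 fibroblast and matrix genes, 2 passed 2-fold upward and 0 downward (1.25% and 0.252% of all genes), 15 lay above and 2 below (44.3% and 35.8% of all genes), and the median was 0.34 (0.13 under the housekeeping shift). Periostin (Postn), a matrix protein of valves and injured heart, was 9.36, 9.50 and 8.37 (1.06), and lysyl oxidase (Lox), which cross-links collagen, was 8.70, 8.34 and 7.46 (1.06). Both were far below the neonatal and adult arrays, which read at least 10.48 for Postn and 11.28 for Lox. Of 12 smooth muscle genes, 7 lay above and 3 below, not far from the 44.3% and 35.8% of all genes, with a median of 0.20 that was -0.01 under that shift. The enteric smooth muscle actin gene Actg2 was 8.39, 8.22 and 7.28 (1.02), Acta2 11.82, 11.85 and 11.12 (0.71), and the smooth muscle myosin gene Myh11 5.61, 5.77 and 5.96 (-0.27). The heart muscle results above came with these shifts in epithelial, yolk sac and connective tissue lists, whose part in them was not tested.

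Some ligands of the BMP, activin and TGF-beta families were higher with DMSO, and others were not. BMPs are secreted factors that, through SMAD proteins, steer mesoderm, heart and surface epithelium, with Id genes as their direct targets. Of 24 counted pathway genes 4 passed 2-fold upward (1.25% of all genes did) and 0 downward. Both arrays were above NRG-1 for 12 and below for 9, near the 44.3% and 35.8% of all genes, and the median of 0.12 turned to -0.14 under the housekeeping shift. The ligand gene Bmp4 was 7.99, 7.61 and 6.04 (1.76), and the iPS, neonatal and adult arrays were between 8.24 and 9.54, so the NRG-1 culture was the lowest array. Bmp7 was 9.06, 8.73 and 7.40, and the NRG-1 culture was near the iPS array at 7.53. Inhba, which encodes the activin A subunit, was 7.27, 7.27 and 5.81 (1.46). The ligand gene Tgfb2 was 8.09, 7.72 and 7.00 (0.91). Bmp2 was the exception among the BMP ligands named here, at 9.36, 9.39 and 9.81 (-0.43).

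Among the targets, Id1 was 7.19, 6.81 and 5.98 (1.02) and Id3 was 6.10, 6.13 and 5.30 (0.82), whereas Id2 was 9.03, 8.87 and 8.66 (0.29). The secreted BMP antagonist gene Nog was 6.01, 6.35 and 6.69 (-0.51). The inhibitory SMAD genes, also BMP and TGF-beta targets, were 6.003, 5.42 and 5.42 for Smad6 and 6.92, 7.21 and 7.25 for Smad7. In Smad6 only the DMSO culture was higher, and in Smad7 that culture was the lowest.

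The ERBB system, through which NRG-1 acts, differed mainly in 1 ligand. Of 11 counted genes, from 16 measured, 1 was 2-fold higher and 0 lower (1.25% and 0.252% of all genes). Both arrays lay above NRG-1 for 9 and below for 1 (44.3% and 35.8% of all genes). The median of 0.15 turned to -0.06 under the housekeeping shift. Epiregulin (Ereg), a ligand of EGFR and ERBB4, was 8.04, 7.50 and 6.28 (1.49), with the DMSO and combined arrays well above NRG-1. Its probe sets differed in size, at 0.86 and 2.13, though not in direction. The receptor genes were close: Egfr was 10.85, 10.73 and 10.39 (0.40), Erbb2 7.55, 7.48 and 7.40 (0.12), and Erbb3 7.77, 7.75 and 7.61 (0.15). Erbb4 was below the filter at 3.90, 3.76 and 3.45. The cells' own Nrg1 transcript was 8.03, 8.09 and 8.10, the same within 0.07 with and without added NRG-1. The ligand gene Hbegf was 10.84, 10.84 and 10.78, and the receptor inhibitor gene Errfi1 was 10.71, 10.76 and 10.27 (0.46).

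Feedback genes of the ERK pathway are raised by growth factors in many cells. Of 16 counted genes, 12 lay above the NRG-1 array and 1 below (44.3% and 35.8% of all genes). The median was 0.28 (0.07 under the housekeeping shift), and 1 gene was past 2-fold upward (1.25% of all genes). The ERK phosphatase gene Dusp4 was 8.98, 8.76 and 7.79 (1.08), and Dusp5 and Dusp6 differed by 0.41 and 0.38. The early gene Ier3 was 10.61, 10.42 and 9.70 (0.81), and the inhibitors Spry1, Spry2 and Spry4 differed by 0.32, 0.15 and 0.42. For 8 of these 16 genes the NRG-1 array was the lowest of all 6, beside 16.8% of all counted genes and 5 of the 10 housekeeping genes. AP-1 and immediate early genes had 13 of 21 above and 5 below with 0 past 2-fold, and their median of 0.08 turned to -0.13 under that shift.

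Other pathways gave single genes. In the Wnt list the secreted antagonist gene Dkk2 was 6.84, 6.70 and 5.71 (1.06) and Sfrp1 was 8.19, 7.68 and 7.05 (0.89), with 12 of 25 genes above and 10 below and a list median of 0.10 that was -0.13 under the housekeeping shift. Smo, the signal transducer of Hedgehog, was 8.43, 8.60 and 7.33 (1.18), and all 3 reference arrays were above 9. Aldh1a1, an enzyme that makes retinoic acid, was 8.64, 8.37 and 7.15 (1.35), and its near-identical relative Aldh1a7, whose probes may pick up some of the same RNA, was 7.62, 6.99 and 5.82 (1.48). The retinoic acid degrading enzyme gene Cyp26b1 was on the other side, at 8.54, 8.56 and 9.32 (-0.77). The imprinted gene Mest, of fetal mesoderm, was 8.87, 8.63 and 7.13 (1.62), against 11.01 in iPS cells. Of 15 counted genes of oxidative stress 9 lay above and 2 below (44.3% and 35.8% of all genes), with a median of 0.23. Of 13 heat shock genes 5 lay above and 4 below, near those shares. Their median of 0.04 was -0.17 under the housekeeping shift. The peroxide-removing enzyme gene Cat was 10.72, 10.71 and 9.43 (1.28), the glutathione transferase gene Gsta4 10.27, 9.85 and 8.94 (1.12), and the small heat shock protein gene Hspb8 9.76, 9.61 and 8.40 (1.29), whereas the chaperone genes Hspd1, Hsp90aa1 and Hspe1 differed by -0.29, -0.26 and -0.26. Of 14 genes of G1 cyclins and their inhibitors 11 lay above and 3 below, with the cell cycle brake Cdkn1a at 11.65, 11.57 and 10.75 (0.86) and a list median of 0.40 (0.19 under the housekeeping shift). Of 23 counted genes of cell division 3 lay above, 10 below and 0 were past 2-fold.

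Residual pluripotency genes lay more often below the NRG-1 array than above it. Of 14 counted genes 9 were below and 3 above (35.8% and 44.3% of all genes). With 0 past 2-fold, the median was -0.19 (-0.40 under the housekeeping shift). Fgf4 and Pou5f1 differed by -0.39 and -0.38. Sox2 was 7.89, 7.24 and 6.70 (0.86) and Tdgf1, a co-receptor for Nodal, was 6.57, 6.02 and 5.50 (0.79), both far below the iPS array at 11.49 and 11.95. Klf4, also an epithelial factor, was 9.88, 10.19 and 10.60 (-0.56), above the iPS array at 8.42.

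The iPS array was set beside the cultures for the 169 higher genes. It was below all 3 cultures for 91 (53.8%), above all 3 for 41 (24.3%) and between for 37 (21.9%). Among all genes with both arrays with DMSO above NRG-1 these shares were 43.0%, 39.4% and 17.6%. The DMSO array exceeded the combined array for 139 of the 169 (82.2%, beside 54.2% of all genes with both arrays above NRG-1). The median difference from NRG-1 was 1.36 for the DMSO array and 1.15 for the combined one, and the median gap between these arrays was -0.22. The calling rule itself puts the combined array on the side of DMSO, and the DMSO array has the wider spread, so these shares are a description of the chosen genes only. Of the 34 lower genes, the DMSO array was the lower of the pair for 22.

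In 62 of the 169 (36.7%) the NRG-1 array was the lowest of all 6. The choice of these genes favours that, and among all genes with both arrays with DMSO above NRG-1 the share was 38.0%, so the called genes show no excess. In 28 of them the NRG-1 array was at least 2-fold below every other array. Their known functions vary. Elovl6, a fatty acid elongase, was 9.57 with DMSO, 9.49 with both agents and 7.70 with NRG-1, and the other arrays read at least 9.54. Uprt, named for a pyrimidine salvage enzyme, was 8.12, 7.83 and 5.74 (2.24), with at least 7.50 elsewhere. Coq5, an enzyme of coenzyme Q synthesis, was 9.99, 9.84 and 8.09 (1.83), with at least 9.62 elsewhere. The NRG-1 value stood alone in each case while the other 5 arrays were close together for Coq5. Copper transporter Slc31a2 was 8.85, 9.004 and 6.91 (2.02), and Trp53i11, a p53-induced gene, was 8.68, 8.46 and 6.53 (2.04). Others were the tRNA amidotransferase subunit gene Gatc (1.63), the ribosome assembly gene Wdr46 (1.497), the vesicle sorting gene Vps33b (1.62), the glycosylation enzyme gene Alg6 (1.403), the purine synthesis gene Paics (1.08), the mitochondrial carrier gene Slc25a12 (1.03), and Cat, Smo and Bmp4. The same count was 8 genes with NRG-1 at least 2-fold above every other array. Below and above every other array, the neonatal array had 30 and 76 genes, the adult array 50 and 86, and the iPS array 515 and 515. For the DMSO array and the combined array the count was 0 in both directions. Each of those arrays has a close neighbour in the other, which the NRG-1 array lacks, and with 1 array a treatment the array and the treatment cannot be told apart.

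**Figure D3:**
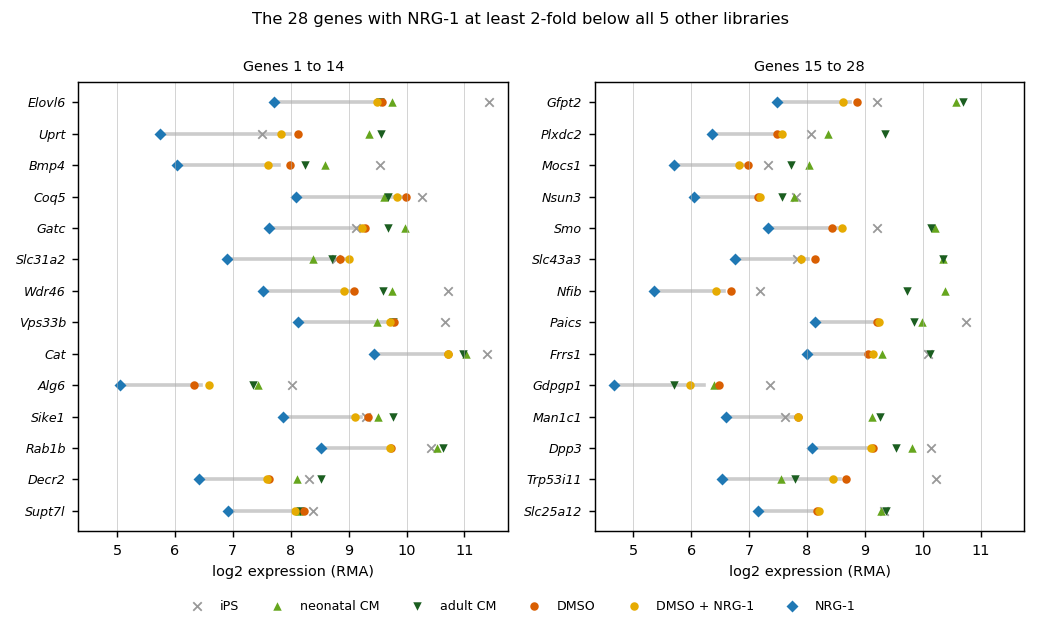
Log2 expression on all 6 arrays of the 28 genes for which the NRG-1 array was at least 2-fold below each of the others, ordered by the size of that gap; the grey bar runs from the NRG-1 array to the mean of both arrays with DMSO. The NRG-1 diamond stands alone at the left of each row, and the gap to the next array runs from 1.78 for Elovl6 to 1.01 for Slc25a12.

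On the lower side, 16 of the 34 genes were short non-coding RNAs, which guide the cutting and chemical marking of ribosomal and spliceosomal RNA or form small RNA-protein machines. Of 96 counted genes of small nuclear, nucleolar and cytoplasmic RNA, 87 (90.6%, beside 35.8% of all genes) were below the NRG-1 array on both arrays with DMSO, 7 were above, and 0 were 2-fold higher. Their median difference was -0.51, -0.51 after cyclic loess and -0.72 under the housekeeping shift. The median level was 8.55 with DMSO, 8.72 with both agents, 9.36 with NRG-1, 8.95 in iPS cells, 8.36 in the neonatal array and 8.53 in the adult array. For 59 of the 96 the NRG-1 array was the highest of all 6 (61.5%, beside 16.5% of all counted genes), which is bound up with the number that lay below it. These genes were left out of the naming rule by their prefixes, and the examples were chosen after their values were seen.

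Snord13, which helps mature 18S ribosomal RNA, was 9.99 with DMSO, 10.06 with both agents and 12.01 with NRG-1 (-1.98), the largest difference on the lower side. The Y RNA gene Rny3 was 9.41, 9.31 and 10.92 (-1.55). Rpph1, the RNA of ribonuclease P, which trims transfer RNA, was 11.27, 11.24 and 12.52 (-1.26). Snord118, the U8 RNA needed for the large ribosomal subunit, differed by -1.43, and Snora30 by -1.74. In all of these the arrays with DMSO were within 0.44 of each other and the NRG-1 array was the highest of the 6. Rn7sk, the abundant 7SK RNA, differed by only -0.15.

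Of 96 counted genes that RefSeq types as pseudogenes 71 lay below and 11 above (35.8% and 44.3% of all genes), with a median of -0.31. A separate type, transcribed pseudogenes, also had 96 counted genes, and of these 33 lay below and 37 above, with a median of 0.02. Cytosolic ribosomal protein genes had 35 of 57 below and 15 above (median -0.11), with Rps13 past 2-fold at 8.36, 8.37 and 9.41 (-1.05). Respiratory chain subunits had 42 of 77 below and 24 above (median -0.11) and mitochondrial ribosomal proteins 43 of 70 below and 17 above (median -0.13). Protein-coding genes as a whole had a median of 0.04, with 161 of the 169 higher and 16 of the 34 lower genes. The table holds no values of RNA quality to set beside these classes. Among the protein-coding genes on the lower side were also the cell cycle gene Cks2, at 7.91, 8.03 and 9.20 (-1.23), Bex2, at 7.05, 6.97 and 8.13 (-1.12), Plac8, at 7.34, 7.13 and 8.31 (-1.08), and Epop, a partner of the Polycomb complex, at 7.95, 8.18 and 9.14 (-1.07). For 24 of the 34 lower genes (70.6%) the NRG-1 array was the highest of the 6, beside 46.2% of all genes with both arrays with DMSO below it.

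**Figure D4:**
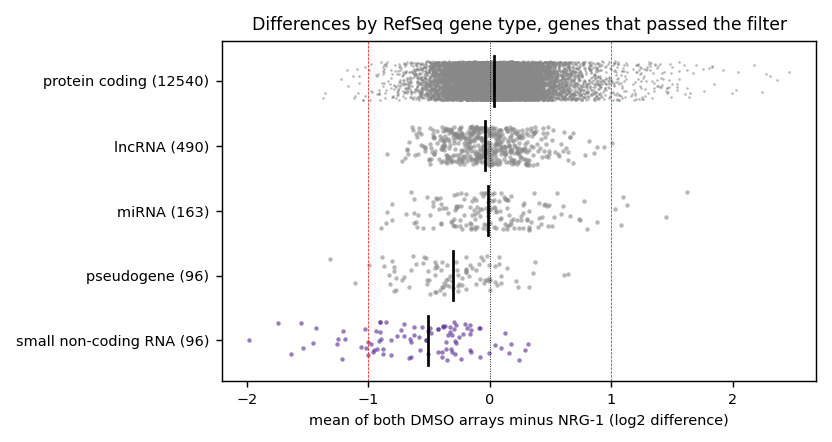
Mean log2 difference of both arrays with DMSO from the NRG-1 array, by RefSeq gene type, 1 point a counted gene; black bars are medians, the dotted line marks 0 and red dashed lines mark 2-fold. Protein-coding genes centre on 0.04, and small non-coding RNA genes centre on -0.51 with none 2-fold higher.

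MicroRNA genes had no common direction, with 55 of 163 above and 60 below, but 5 of the 6 that were at least 2-fold higher lie in 1 cluster. The Dlk1-Meg3 region of chromosome 12 is imprinted, and its long non-coding RNAs, small nucleolar RNAs and microRNAs are made from the maternal copy. The mature sequences of those 5 genes are shown because they are the transcripts that stand apart within the cluster. They come from RefSeq (GRCm38.p6, chr12:109712523-109720083, plus strand), with the seed, bases 2 to 8, in capitals:
mmu-miR-667-3p: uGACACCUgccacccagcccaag
mmu-miR-667-5p: cGGUGCUGguggagcagugagcacg
mmu-miR-323-3p: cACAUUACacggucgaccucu
mmu-miR-323-5p: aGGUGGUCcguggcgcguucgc
mmu-miR-543-3p: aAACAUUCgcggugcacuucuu
mmu-miR-543-5p: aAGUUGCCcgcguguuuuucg
mmu-miR-329-3p: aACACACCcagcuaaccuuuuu
mmu-miR-329-5p: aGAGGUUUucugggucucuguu
mmu-miR-494-3p: uGAAACAUacacgggaaaccuc
mmu-miR-494-5p: aGGUUGUCcguguugucuucuc
The 10 sequences have 10 different seeds, so these genes share a location and not a seed. The array reads the RNA of a microRNA gene and does not separate the mature form from its precursor.

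Mir667 was 8.28 with DMSO, 8.22 with both agents and 6.63 with NRG-1 (1.62), and Mir323 was 6.82, 7.15 and 5.54 (1.45). Mir543 was 6.42, 6.78 and 5.48 (1.13), Mir329 7.94, 8.10 and 6.94 (1.08), and Mir494 6.05, 6.05 and 5.02 (1.03). In each the cultures with DMSO were the highest of the 6 arrays. From Mir379 to Mir409, 20 of 32 measured microRNA genes were counted, of which 15 lay above and 2 below, with a median of 0.36 (0.15 under the housekeeping shift). In the stretch from Dlk1 to before Mir379, 0 of 10 counted microRNA genes lay above and 8 below, with a median of -0.26. The host RNA Rian differed by -0.28 and Meg3 and Dlk1 by -0.07 and -0.11, and the small nucleolar RNA gene AF357341 was 4.47, 4.87 and 5.86 (-1.19). The segments of the region thus differed in direction. All microRNA genes elsewhere had 40 of 133 above and 50 below (median -0.02), and Mir5123 (1.09) was the sixth gene past 2-fold.

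**Figure D5:**
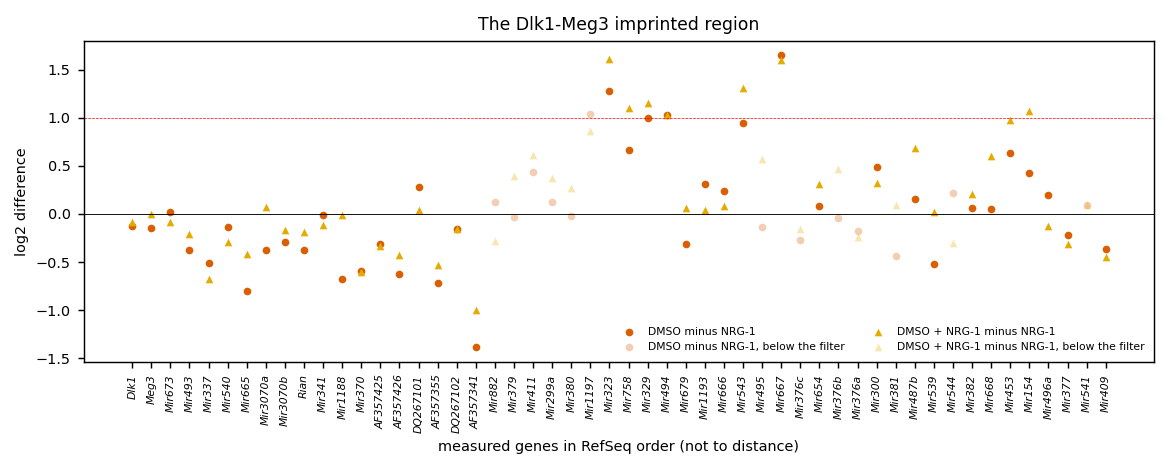
Log2 difference from the NRG-1 array for 52 measured genes of the Dlk1-Meg3 region in RefSeq order, not to distance; circles are the DMSO array, triangles the combined array, pale symbols genes below the filter, and the red line marks 2-fold. Most genes left of Mir882 lie below 0, while Mir323, Mir329, Mir494, Mir543 and Mir667 lie near or above the 2-fold line on both arrays.

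Promoters of the called genes were searched for 10 short motifs in the 250 bases before and 50 after the start sites that RefSeq gives (GRCm38.p6), on both strands. The core promoter motifs were TATAAA, the TATA box, and GGGCGG, which Sp1 family factors bind and which is called the GC box, along with the CCAAT box. Those of signal-driven factors were TGACTCA for AP-1, the dimer of Fos and Jun proteins, and TGACGTCA for the cyclic AMP response element. Those of developmental factors were AGATAA for the GATA family of zinc finger proteins, GGAATG for the TEAD partners of YAP, CAGCTG for an E-box bound by basic helix-loop-helix proteins, AACCGGTT for the grainyhead factors and CACCC for KLF proteins. No motif contains another. AP-1 letters were in 5.20% of all promoters and 4.04% of those of counted genes. They were in 9 of 146 promoters of the higher genes (6.16%), and 8 of the 9 belonged to genes with iPS cells below all 3 cultures, where 8 of 82 promoters (9.76%) held them. In that subset, of 65 genes, the TATA box was in 19.5% of promoters (7.92% of promoters of counted genes) and the GC box in 39.0% (60.4%). Counted genes with iPS cells below the cultures were not searched as a set. These shares therefore cannot be assigned to the difference with DMSO. In the higher genes for which NRG-1 was the lowest array the GC box was in 64.7% of 51 promoters and AP-1 letters in 1.96%. TEAD letters were in 19.5% of promoters of the first subset and 3.92% of the second, against 12.4% of promoters of counted genes. Among 18 promoters of 13 lower genes, the TATA box was in 27.8% and the CCAAT box in 77.8% (36.9% of promoters of counted genes). Some genes have several promoters. By gene, 9 of the 13 had the CCAAT box, beside 4400 of 10524 counted genes with a promoter. A match describes the letters in a window and not a bound site. Of the promoters with AP-1 letters, those of Slc6a14 (chrX:21714650-21714949, plus strand) and Aldh1a1 (chr19:20492333-20492632, plus strand) are shown, with those letters in capitals, because both genes are described above. The match starts 82 bases before the start site in Slc6a14 and 57 before it in Aldh1a1:
Slc6a14: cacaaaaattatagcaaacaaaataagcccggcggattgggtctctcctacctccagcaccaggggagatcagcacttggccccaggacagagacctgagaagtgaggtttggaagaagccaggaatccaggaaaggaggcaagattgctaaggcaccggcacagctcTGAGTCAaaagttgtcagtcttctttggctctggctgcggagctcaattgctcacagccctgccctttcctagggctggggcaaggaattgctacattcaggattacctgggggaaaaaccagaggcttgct
Aldh1a1: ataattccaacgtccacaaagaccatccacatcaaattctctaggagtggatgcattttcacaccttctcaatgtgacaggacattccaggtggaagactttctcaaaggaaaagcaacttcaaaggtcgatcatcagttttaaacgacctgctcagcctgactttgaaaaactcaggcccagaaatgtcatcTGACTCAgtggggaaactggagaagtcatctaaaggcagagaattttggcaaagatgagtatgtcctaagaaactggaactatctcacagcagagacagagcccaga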

How the data were processed

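Members, gene lists and comparisons were chosen with earlier results of these data known. RMA, named in the submitters' processing notes, turned the scans into the log2 values that the authors deposited, for 41345 probe sets. That they are log2 was read from their range, and which software ran RMA is not given in the sources used here. RMA brings the arrays to nearly the same distribution (medians of all probe sets from 5.13 to 5.26), so a change in most genes at once is hard to see, and the table holds no background values. Precision is limited by the small number of arrays.

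The platform annotation gave names to probe sets (23521 with 1 gene symbol, 1814 with several, 16010 unnamed). Those with 1 symbol were averaged by gene, giving 22180 genes, and those with several were left out of the gene values. Gene types, gene order and sequences came from RefSeq tables of GRCm38.p6. The deposited table names no build, so the coordinates printed are those of the RefSeq sequences themselves. A gene was counted if the highest of its 3 values reached the median of the table (5.20) and called if both arrays with DMSO lay on 1 side of NRG-1 with a mean difference of at least 2-fold.

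Named are the 15 genes most different in the mean each way and the 10 with the largest smaller difference, without symbols whose prefix marks histones, receptor segments, olfactory or vomeronasal receptors, small RNAs, microRNAs, clones or predicted genes. The rule also takes from 52 lists (909 of 975 entries measured) up to 8 members by size, any sarcomere, cardiac or ERBB gene, genes at the thresholds, and sex-linked genes. Not all genes that the lists allow are printed. A few others are marked or serve as known markers, picked with their values in view. The settings also tried were no filter, a filter at the 75th percentile, the brightest probe set, cyclic loess (limma 3.58.1, R 4.3.3), the housekeeping shift and leaving out each array with DMSO. On simulated data for 12808 genes the counting step called 96% of genes set 2.83-fold apart, 97% of those set 8-fold apart and 2 of 12608 unchanged genes. The simulated noise came from the disagreement of probe sets, drawn separately for each array. It holds no variation between cultures, so these are not error rates for the called genes. Python 3.11.15 with pandas 2.3.3 did the rest.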

Additional observations from a re-analysis of the deposited data

Results flagged for a closer look

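Probe sets without a gene symbol, or with several, enter none of the counts above, and they carried signal too. Of 8418 that passed the same filter, 219 were at least 2-fold higher with DMSO and 282 at least 2-fold lower, by the same rule. Both are larger shares than the 1.25% higher and 0.252% lower among all counted genes. Here the lower side was the larger, unlike among those genes. Which transcripts those without a symbol read is not known here.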

How the results depend on the processing

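Counts at 2-fold were 176 higher and 48 lower with no filter, 144 and 25 with the filter at the 75th percentile, 174 and 37 with the brightest probe set, and 170 and 36 after cyclic loess, which shared 164 and 32 genes with those reported. The housekeeping shift gave 96 higher and 107 lower genes at 2-fold and 5 and 1 at 4-fold. Asking for 2-fold in both arrays left 123 higher and 20 lower. Protein-coding genes alone, an alternative chosen after seeing the data, gave 161 and 16. With either array with DMSO left out, the counts ran from 144 to 238 higher and 39 to 48 lower at 2-fold, and from 7 to 10 higher and 0 to 1 lower at 4-fold. Without the DMSO array 129 of the 169 and 25 of the 34 genes were still called, and without the combined array 162 and 29. No named gene past 2-fold changed sign. For settings that alter the filter or leave out an array, the calling rule fixes this in advance. The housekeeping shift moves each difference by far less than 2-fold, and by the same amount for every gene. The filter was applied again after that shift and passed 13918 genes. List medians under it therefore also moved through a changed set of counted members. List medians changed sign for 24 of 52 lists under the housekeeping shift (none over 0.33 as reported), 8 of 52 with no filter, 7 of 48 with the filter at the 75th percentile, 2 with the brightest probe set, 1 after cyclic loess, and 4 and 7 with the combined or the DMSO array left out. Among lists described above, simple epithelium was -0.03 and the interferon list -0.01 with the filter at the 75th percentile, and thick filament was -0.09 with no filter. Ereg moved to 2.13 with the brightest probe set. The epicardial list median moved to 0.20 with no filter, those of the Z-disc and neural lists to 0.90 and 0.84 with the filter at the 75th percentile, and that of the central and posterior HOX list to -0.58 under the housekeeping shift. No paired analysis was possible because each treatment has 1 array and every array carries the same replicate number.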

Other observations

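Pairs of called genes that are next to each other among the measured genes of a chromosome, in RefSeq order, were few. They were Serpinb2 (1.11) and Serpinb8 (1.32), serpins of 1 gene cluster, Tnip3 (1.31) and Ndnf (1.01), Mir329 and Mir494, and, on the lower side, the small nucleolar RNA genes Snora73b (-1.46) and Snora73a (-1.01). Some genes of innate immunity, named after their values were seen, were also at least 2-fold higher. The interferon-induced protease gene Usp18 was 9.69, 9.27 and 8.29 (1.19), the double-stranded RNA sensor gene Tlr3 7.61, 7.05 and 6.29 (1.03), the DNA sensor gene Aim2 7.80, 7.54 and 6.42 (1.24), and the caspase gene Casp8 9.42, 9.27 and 7.50 (1.84). Of 13 counted genes of the interferon list, however, 7 lay above and 3 below with 1 past 2-fold, and the median of 0.15 was -0.06 under the housekeeping shift. The chemokine gene Cxcl15 was 7.48, 6.54 and 5.53 (1.48), a step of similar size between each culture and the next. Ppargc1a, the coactivator of mitochondrial growth, was 7.22, 6.42 and 5.48 (1.35), also in steps.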
